A study of Mus musculus with 9 samples.

Results

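The cytosolic heat shock chaperones described here are 8 genes, Hspa1a, Hspa1b, Hsph1, Hspa8, Hsp90aa1, Dnajb1, Hspb1 and Hspa4l, taken by symbol from the 40879 genes of the deposited count and FPKM tables. All 8 were measured in the spinal cord of male mice by RNA-seq of poly(A)-selected RNA, and all 8 were among the 18245 genes that passed the filter on low counts. The 9 libraries form 3 groups of 3: sham, SNI, and SNI with LDN193189. In pain research SNI usually stands for spared nerve injury, a lesion of branches of the sciatic nerve, and LDN193189 is a drug-like compound that blocks the kinases of BMP type I receptors such as ACVR1, the receptor the series title names. The strain, age, spinal segment and side, the time after surgery, the dose and the vehicle are not in the labels, and no group of sham mice with LDN193189 was analysed here. The tables name their columns by a letter and a number, read here as S for sham, N for SNI and L for SNI with LDN193189. Were S the first letter of SNI instead, the directions below would change, whereas the levels of each column would not. The labels name biological samples without saying that each came from a separate animal, so the p-values measure the spread between these samples. The libraries held between 33432776 and 37190467 counts on genes, of which the 8 chaperones together took from 0.359% to 0.428%. Sham replicate 1 stood apart by skeletal muscle markers, sham replicate 2 by ganglion neuron markers and sham replicate 3 by meningeal fibroblast markers. The values of these markers are given further on. Leaving out any of these libraries changed no call of a chaperone.

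Heat shock proteins bind unfolded or partly folded proteins and help them to fold, to stay soluble or to be degraded. HSP70 proteins do so in cycles of ATP hydrolysis that J-domain proteins start and nucleotide exchange factors, among them the HSP110 proteins, reset; HSP90 proteins take over many kinases and steroid receptors from HSP70, and small heat shock proteins hold unfolded clients without using ATP. The transcription factor HSF1 drives the inducible members after heat or other proteotoxic stress, by binding inverted repeats of the unit nGAAn in their promoters. In the spinal cord the constitutive HSP70 and HSP90 proteins are abundant in all cell types, and the inducible HSP70 genes are known to respond quickly to changes of temperature.

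Hspa1a and Hspa1b encode the inducible HSP70 and lie side by side on chromosome 17, on the minus strand (GRCm38, GENCODE M21: chr17:34969190-34972156 and chr17:34956436-34959238). The last 150 bases before each transcription start are shown because these 2 copies differed at only 3 of the 250 bases before the start, 1 of them in the printed stretch. The capitals mark a match to GAANNTTC, 2 of the units in opposite orientation, which began 104 bases before the start in both genes (RefSeq, GRCm38.p6, minus strand, chr17:34972157-34972306 for Hspa1a and chr17:34959239-34959388 for Hspa1b).

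Hspa1a: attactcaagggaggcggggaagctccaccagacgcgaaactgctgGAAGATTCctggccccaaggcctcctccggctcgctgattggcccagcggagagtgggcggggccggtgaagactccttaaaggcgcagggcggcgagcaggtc

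Hspa1b: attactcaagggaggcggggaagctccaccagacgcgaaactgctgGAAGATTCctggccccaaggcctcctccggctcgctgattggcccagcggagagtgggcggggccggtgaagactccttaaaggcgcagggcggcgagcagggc

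Both orders of the pair, GAANNTTC and TTCNNGAA, each of which reads the same on both strands, were searched in the 250 bases before each start. Either one was in 12.8% of the 32817 promoters of the RefSeq table, GAANNTTC in 6.69% and TTCNNGAA in 7.16%. Among the members, 4 of the 6 with a promoter in that table held a match, Hspa1a, Hspa1b, Hsph1 and Hspb1, while Dnajb1 and Hspa4l held none in this window. Hspa8 and Hsp90aa1 had no entry. Of the 62 other chaperone genes with a promoter, taken from the lists described further on, 13 held a match. These counts are by gene, with a match in any of its promoters, and some genes had several. The 12.8% is by promoter, so the shares are not on the same footing. The nearly identical promoters of Hspa1a and Hspa1b are counted separately. The matches of Hsph1 and Hspb1 are shown with their flanks, again in capitals (chr5:149636351-149636380, minus strand, and chr5:135887792-135887839, plus strand). That of Hsph1 began 33 bases before the nearer of its 2 RefSeq starts and 54 before the other, and it lies within the span that GENCODE gives the gene, while those of Hspb1 began 117 and 97 bases before.

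Hsph1: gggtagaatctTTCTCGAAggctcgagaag

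Hspb1: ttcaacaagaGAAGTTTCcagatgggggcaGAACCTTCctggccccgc

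Levels per length were read from the FPKM as deposited, fragments scaled by gene length and library total. By these the members spanned from the abundant Hspa8 to Hspa1a and Hspa1b, which were low but past the filter. Hspa8, the constitutive HSP70, stood highest at 748 ± 49.4 FPKM (SD, n = 9 libraries). Hsp90aa1, the inducible cytosolic HSP90, followed at 513 ± 35.2 FPKM, and the ranges of these 2 genes did not overlap. Well below came the HSP110 proteins, Hsph1 at 53.5 ± 7.37 FPKM and Hspa4l at 47.8 ± 2.63 FPKM. Hspb1, a small heat shock protein, was at 17.8 ± 2.41 FPKM, and Dnajb1, the J-domain partner of inducible HSP70, at 15.9 ± 2.76 FPKM. Hspa1a was at 2.49 ± 1.05 FPKM and Hspa1b at 2.30 ± 1.58 FPKM. Within each of the last 3 couples of neighbours (Hsph1 and Hspa4l, Hspb1 and Dnajb1, Hspa1a and Hspa1b) the ranges over the libraries overlapped, so their order was not resolved.

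Some of these levels carry an uncertainty of assignment. Of the 150-base windows along the Hspa1a transcript 46.0% also occurred in transcripts of other genes, 38.1% in Hspa1b, and of those along Hspa1b 40.5% occurred in Hspa1a. The shares were 56.0% for Hspa8 (49.3% in Gm26825), 36.2% for Hsp90aa1 (30.04% in Gm12346) and 36.6% for Hspb1 (in Hsp25-ps1). No window of Hsph1, Dnajb1 or Hspa4l was shared. How reads with several possible origins were counted is not given in the sources used here, so the split between Hspa1a and Hspa1b, and the levels of Hspa8, Hsp90aa1 and Hspb1, are uncertain to that extent. Gm20481 lies over Hspa1a on the opposite strand and was not analysed here.

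The levels by library that follow are counts scaled to TMM-normalised library totals (CPM), which compare 1 gene between libraries, not genes with each other. For Hspa1a they were 10.5, 6.30 and 6.59 CPM in sham replicates 1 to 3, 7.66, 5.49 and 4.71 CPM in SNI, and 12.7, 3.82 and 4.81 CPM in SNI with LDN193189. The highest and the lowest library of all 9 were both in the LDN193189 group, and the 3 groups overlapped. Hspa1b was at 14.0, 5.98 and 8.83 CPM in sham, 8.08, 5.27 and 1.61 CPM in SNI, and 10.7, 1.97 and 1.49 CPM with LDN193189. Its sham libraries were the highest on average, at 9.60 ± 4.06 CPM (SD, n = 3), against 4.99 ± 3.25 CPM in SNI and 4.74 ± 5.21 CPM with LDN193189, yet each group reached into the others. The Hspa1b counts ran from 52 to 522, so the 9.39-fold distance between its highest and lowest library was far above counting error.

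**Figure D1:**
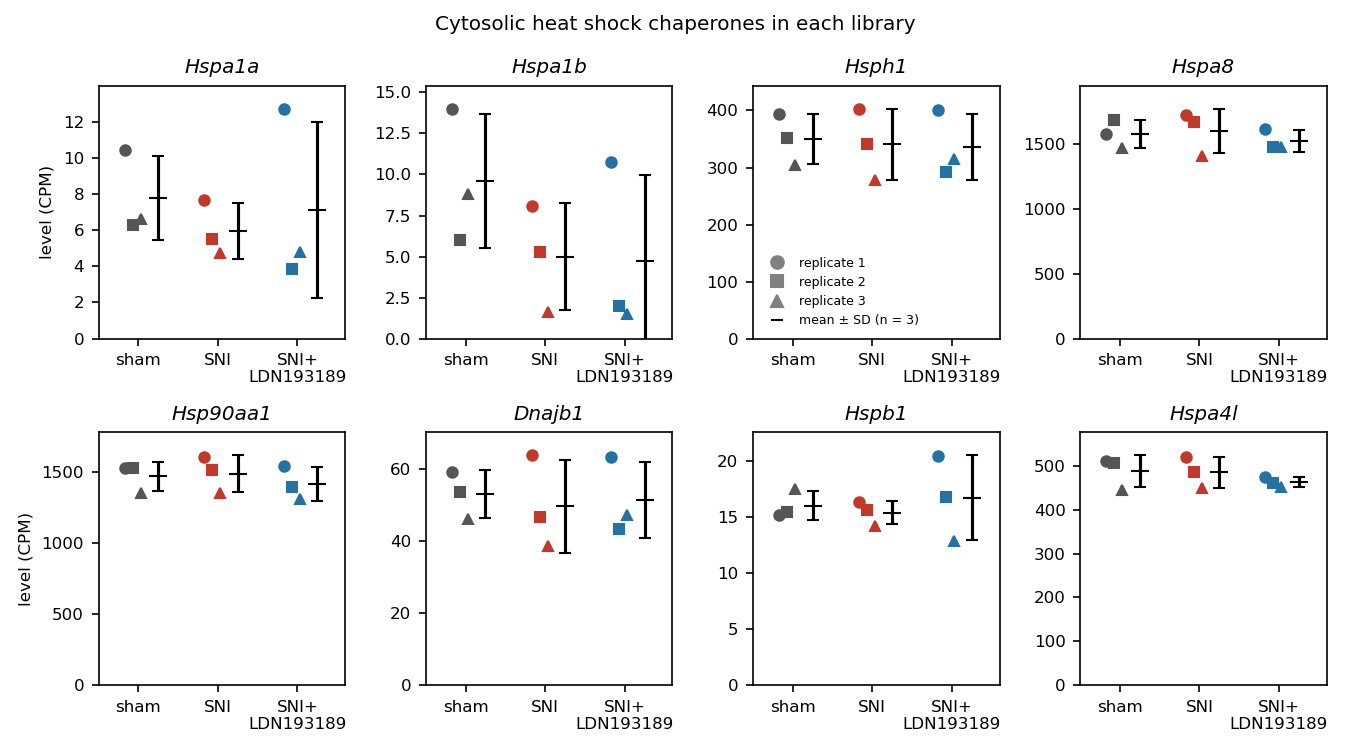
Level of each chaperone in each library in CPM (linear axis from 0; circles, squares and triangles are replicates 1, 2 and 3; horizontal ticks with bars are the group mean ± SD, n = 3). In every panel the 3 groups overlap; for Hspa1b the SD bar of SNI+LDN193189 (4.74 ± 5.21) reaches below 0 and is clipped there.

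Hsph1, the inducible HSP110 that resets HSP70 by nucleotide exchange (chr5:149614287-149636376, minus strand), was at 393, 352 and 305 CPM in sham, 402, 342 and 277 CPM in SNI, and 401, 293 and 314 CPM with LDN193189. Each group held 1 library at 393 to 402 CPM, numbered 1 in all 3 groups, and the groups overlapped. Hspa4l, the other HSP110 protein among the members, known for its abundance in testis (chr3:40744495-40796103, plus strand), was at 510.4, 507 and 446 CPM in sham, 521, 486 and 449 CPM in SNI, and 476, 461 and 452 CPM with LDN193189. It varied least of the 8, by 1.17-fold from the lowest to the highest library.

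Dnajb1 (chr8:83608193-83612653, plus strand) was at 59.2, 53.6 and 46.1 CPM in sham, 63.7, 46.6 and 38.5 CPM in SNI, and 63.2, 43.3 and 47.3 CPM with LDN193189. As for Hsph1, the library numbered 1 was the highest of each group, and SNI replicate 3 the lowest of all 9. Hspa8, which folds new proteins and uncoats clathrin vesicles in unstressed cells (chr9:40800984-40810087, plus strand), was at 1583, 1689 and 1470.5 CPM in sham, 1728, 1669 and 1408 CPM in SNI, and 1619, 1476 and 1479 CPM with LDN193189. SNI held both its highest and its lowest library. Hsp90aa1 (chr12:110690605-110702728, minus strand) was at 1531, 1527 and 1350.2 CPM in sham, 1604, 1514 and 1353 CPM in SNI, and 1544, 1395 and 1308 CPM with LDN193189, again with overlapping groups.

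Hspb1, the small heat shock protein HSP25 that is abundant in motor and sensory neurons and known to rise after axotomy (chr5:135887919-135889563, plus strand), was at 15.2, 15.4 and 17.5 CPM in sham, 16.3, 15.7 and 14.3 CPM in SNI, and 20.5, 16.8 and 12.9 CPM with LDN193189. The LDN193189 group held both the highest and the lowest library. In whole tissue, fewer cells of a type and less RNA per cell cannot be told apart, for this gene or any other named here.

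The first comparison, SNI against sham, asks what the nerve lesion changed. In it 0 of the 8 chaperones passed an adjusted p of 0.05 (edgeR quasi-likelihood test, Benjamini-Hochberg over 18245 genes), where the share of all genes was 0%. At an unadjusted p of 0.05 the count was 0 of 8, against 5.33% of all genes, and 0 of 8 had groups that did not overlap, against 8.87%. DESeq2 called 0 of 8 and 0.110% of all genes, and limma 0 of 8 and 0% of all genes. The differences were 2 up and 6 down, with a median of -0.05 on the log2 scale beside 0.00 for all genes, and 50.1% of all genes above 0. The adjusted p-values lay between 0.965 and 0.999. Without sham replicate 1 the edgeR test called 38 genes at an adjusted p of 0.05, with 0 of the 8 among them.

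How narrow these comparisons were differed between members. Hspa8 differed between SNI and sham by a log2 fold change of 0.02 ± 0.0762 (SE), with a 95% interval from 0.905-fold to 1.13-fold, and Hspa4l by -0.01 ± 0.0640, from 0.906-fold to 1.09-fold. Hsp90aa1 had an interval from 0.905-fold to 1.14-fold. For Hsph1 the log2 fold change was -0.04 ± 0.181 and the interval ran from 0.720-fold to 1.31-fold, for Dnajb1 it was -0.10 ± 0.227 and from 0.641-fold to 1.36-fold, and for Hspb1 -0.06 ± 0.138 and from 0.782-fold to 1.18-fold. The inducible HSP70 genes were far less resolved. The log2 fold change of Hspa1a was -0.39 ± 0.489, with an interval from 0.340-fold to 1.71-fold, and that of Hspa1b was -0.95 ± 0.916, with an interval from 0.111-fold to 2.42-fold. A fall of Hspa1b to a small part of its sham level and a rise above it were thus both within the interval. The log2 fold change of Hspa1a was -0.12 without sham replicate 1 and -0.61 without SNI replicate 1. That of Hspa1b ranged from -0.53 without SNI replicate 3, and -0.58 without sham replicate 1, to -1.48 without SNI replicate 1.

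The comparison of SNI with LDN193189 against SNI asks what the inhibitor changed in lesioned mice. It gave 0 of 8 chaperones at an adjusted p of 0.05 with edgeR, DESeq2 and limma, which called 0.00548%, 0.0191% and 0% of all genes. The count was 0 of 8 at an unadjusted p of 0.05 (3.88% of all genes) and 0 of 8 for groups that did not overlap (11.3%). Hspa1a differed by a log2 fold change of 0.26 ± 0.491, with an interval from 0.533-fold to 2.69-fold, and Hspa1b by -0.07 ± 0.929, from 0.200-fold to 4.55-fold. The other 6 members lay between -0.07 and 0.12, and all 8 adjusted p-values were 1.00. Of the 8, 3 were higher and 5 lower, where 49.8% of all genes were higher, with a median of -0.04 beside -0.00 for all genes.

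Against sham, which serves as control here and in the first comparison, the LDN193189 group also gave 0 of 8 at an adjusted p of 0.05 with edgeR, DESeq2 and limma, which called 0.0164%, 0.501% and 0.00548% of all genes. None of the 8 reached an unadjusted p of 0.05, which 8.56% of all genes did, and 0 of 8 had groups that did not overlap, which 13.1% of all genes had. The largest difference was that of Hspa1b, a log2 fold change of -1.02 ± 0.918 with an adjusted p of 0.788 (edgeR), and the lowest adjusted p was 0.753 for Hspa4l (edgeR), whose log2 fold change was -0.08. Of the 8, 7 were lower and 1, Hspb1, was higher, where 48.0% of all genes were higher, with a median of -0.06 beside -0.01 for all genes. A joint test of the 3 groups also called 0 of 8, the lowest unadjusted p being 0.448, where it called 0.00548% of all genes.

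**Figure D2:**
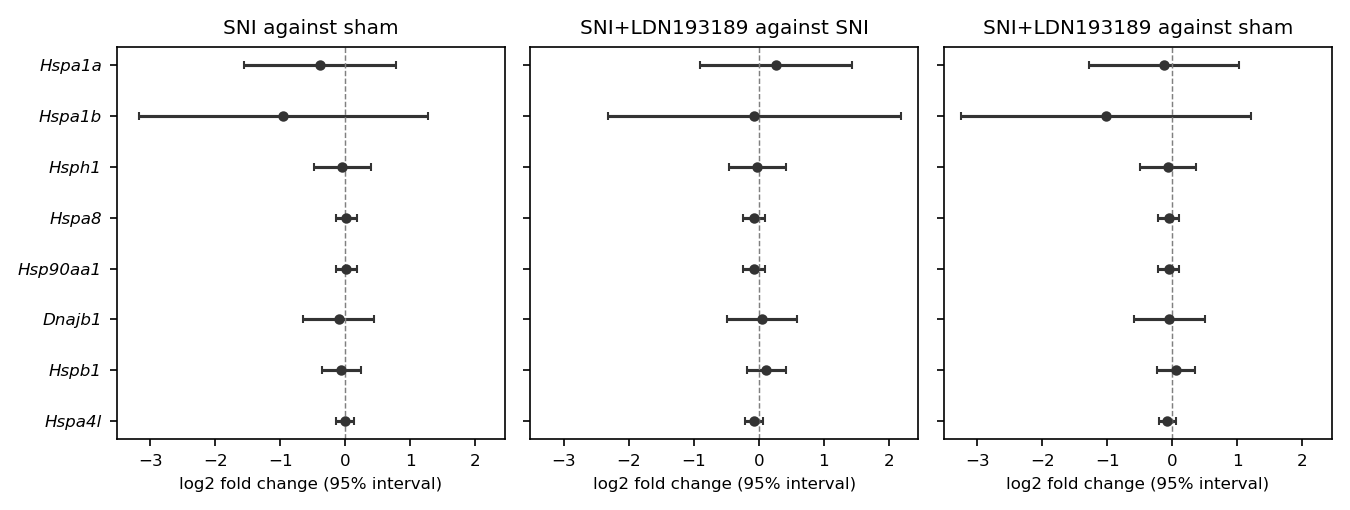
Log2 fold change of each chaperone (points) with its 95% interval (bars) from the edgeR fit of 9 libraries, for the 3 comparisons. All 24 intervals include 0; they are narrowest for Hspa4l, Hspa8 and Hsp90aa1 and widest for Hspa1b, whose interval in SNI against sham runs from -3.17 to 1.27.

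What set the members apart from each other was the spread within groups. The SD of log2 CPM within groups put Hspa1b at the 99.1 percentile of all tested genes and Hspa1a at the 91.6 percentile, Dnajb1 at 72.6, Hsph1 at 67.0 and Hspb1 at 64.0. Hsp90aa1 was at 42.3, Hspa8 at 42.1 and Hspa4l at the 30.6 percentile. The biological coefficient of variation of the edgeR model, which takes counting error out, was 0.748 for Hspa1b where genes of its level had 0.183, and 0.405 for Hspa1a where they had 0.179. It was also above that of genes of the same level for Dnajb1, 0.191 against 0.0739, and for Hsph1, 0.154 against 0.0633. For Hspb1 the values were 0.133 against 0.127, and for Hspa8, Hsp90aa1 and Hspa4l they were within 0.01 of each other.

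This spread was shared between members. The 28 pairs of members were correlated over the 9 libraries on log2 CPM, and all 28 correlations were positive, with a median Pearson r of 0.76 and a range from 0.10 to 0.97. Of them, 15 had an adjusted p under 0.05 (exact permutation test over all pairings of the 9 libraries, two-sided, adjusted over the 28 pairs), and 12 did by Spearman's rho. Among all 166430890 pairs of tested genes 49.8% were positive and the median r was -0.002, and 1.38% reached the r of 0.757 that the lowest of the 15 had. The members had been chosen with results of these data known, so these p-values are no independent evidence that such genes vary together. The count of 15 fell to 4 without SNI replicate 1, to 6 without SNI+LDN193189 replicate 2, to 8 without SNI replicate 3 and to 9 without sham replicate 1. With each value taken relative to its group mean, all 28 were again positive, with a median r of 0.83, and 13 passed. All 13 had the same adjusted p of 0.0499 (exact permutation within groups), just under the threshold. The 216 reassignments of that test allow no raw p below 0.00463. Of all pairs of genes 49.9% were then positive, and 1.41% reached the lowest r of the 13, which 15 of the 28 member pairs did.

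The closest pair was Hsph1 and Dnajb1, the exchange factor and the J-domain protein of the same HSP70 cycle. Their Pearson r was 0.97 (exact permutation p = 1.65e-05, adjusted 0.000463) and Spearman's rho 0.98 (p = 4.96e-05, adjusted 0.00139), r within groups was 0.98, and without the 2 libraries farthest from the median of Hsph1 it was 0.95. For the neighbours Hspa1a and Hspa1b r was 0.87 (exact permutation p = 0.00257, adjusted 0.0169) and rho 0.90 (p = 0.00203, adjusted 0.0283), and r was 0.90 within groups and 0.87 without the 2 farthest libraries. These 2 genes share windows of sequence, as given above, and the part of that in their correlation was not tested, whereas Hsph1 and Dnajb1 share none. Between the 2 most abundant members, Hspa8 and Hsp90aa1 had an r of 0.91 (exact permutation p = 0.00258, adjusted 0.0169) and a rho of 0.75 (p = 0.0255, adjusted 0.0549), and r was 0.88 without the 2 farthest libraries.

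Hspb1 was the member least tied to the others. Its 7 correlations ran from 0.10 with Hspa4l to 0.60 with Hspa1b, and none passed the adjusted threshold. Leaving out the 2 farthest libraries of each pair kept 27 of the 28 correlations positive, the exception being Hspb1 with Hspa4l at -0.16. Over all pairs r was then between -0.16 and 0.95.

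**Figure D3:**
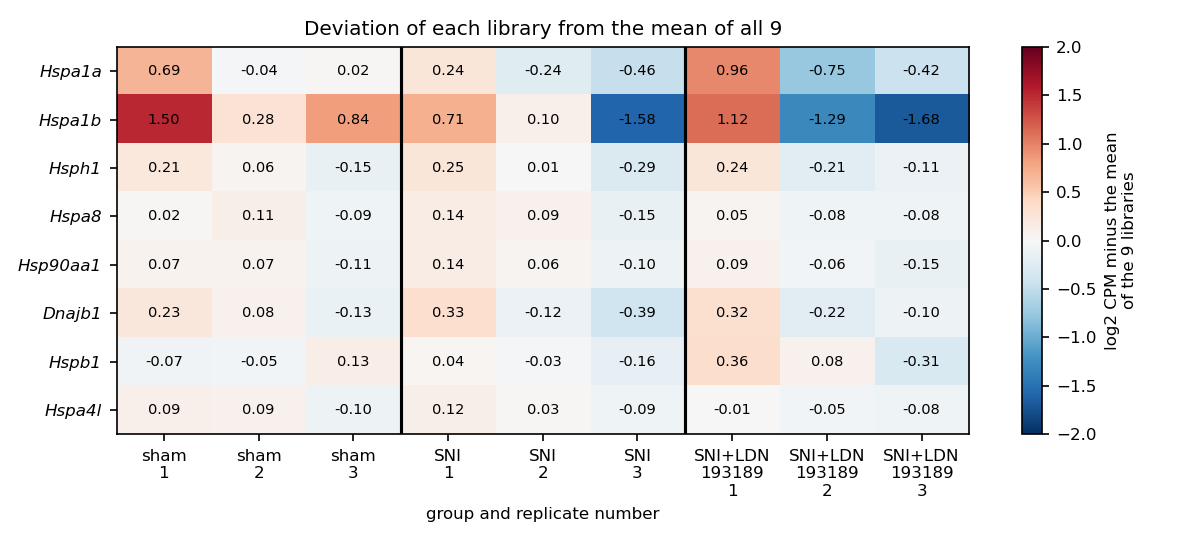
Log2 CPM of each chaperone (rows) in each library (columns, by group and replicate number) minus the mean of the 9 libraries; red is above and blue below the mean, and the number in each cell is the value. The columns of replicate 1 are mostly red and those of SNI replicate 3 and SNI+LDN193189 replicate 3 are blue in every row, that of SNI+LDN193189 replicate 2 in every row but Hspb1; the highest libraries are spread over the 3 groups.

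In 6 of the 8 chaperones, all but Hspa8 and Hspb1, the library numbered 1 was the highest of its group in each of the 3 groups, which held for 4.98% of all tested genes and for 8 of 74 other chaperones. The labels do not say what, if anything, libraries of the same number share. In an edgeR fit of group and replicate number, chosen after seeing the data, 6 of the 8, all but Hspa1b and Hspb1, had an unadjusted p under 0.05 for the replicate number, against 5.29% of all genes, and 0 of 8 passed the adjusted threshold, which 0 of the 18245 genes did. Hspa8 and Hspb1 had the library numbered 1 highest in 2 of the 3 groups.

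SNI replicate 3 was the lowest library for Hsph1, Hspa8 and Dnajb1. SNI replicate 1 was the highest for Hsph1, Hspa8, Hsp90aa1, Dnajb1 and Hspa4l. The summed level of the 8 was 4351 CPM in SNI replicate 1 and 3547 CPM in SNI replicate 3, so that the whole range of the 9 libraries lay inside the SNI group. In sham the sum was between 3651 and 4157 CPM, and with LDN193189 between 3619.7 and 4146 CPM.

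Cirbp and Rbm3, RNA-binding proteins that are known to rise when cells are cooled and to fall when they are warmed, varied the opposite way. Cirbp was at 46.1, 56.0 and 61.3 CPM in sham, 45.6, 48.8 and 84.7 CPM in SNI, and 55.3, 75.9 and 68.8 CPM with LDN193189. It was highest in SNI replicate 3, the library where the chaperones summed lowest, and lowest in SNI replicate 1, where they summed highest. Rbm3 was at 58.5, 67.4 and 66.8 CPM in sham, 65.4, 63.5 and 92.0 CPM in SNI, and 74.0, 91.1 and 96.5 CPM with LDN193189.

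All 16 correlations of these 2 genes with the 8 chaperones were negative, from -0.90 to -0.27 with a median of -0.72. The 8 chaperones were correlated with each other, so the 16 are not independent of one another. Without the 2 farthest libraries of each pair 15 of the 16 were negative, and Rbm3 with Hspb1 was at 0.45. This family was tested after the data had been seen, and 7 of the 16 had an adjusted p under 0.05 by Pearson's r (exact permutation, two-sided, adjusted over the 16) and 3 by Spearman's rho. Of these, 6 of the 7 and all 3 were pairs of Cirbp, and Rbm3 passed with Hspa1b alone, by Pearson's r. For Cirbp and Hsph1 r was -0.88 (exact permutation p = 0.00257, adjusted 0.0242) and rho -0.90 (p = 0.00203, adjusted 0.0325), and r without the 2 farthest libraries was -0.75. Within groups all 16 stayed negative, with a median r of -0.81, but 0 of 16 passed, the lowest adjusted p being 0.0606. The 216 reassignments within groups allow no raw p below 0.00463. The count of 7 fell to 0 without SNI replicate 1 and without SNI replicate 3, to 1 without sham replicate 1 and to 4 without sham replicate 2, and it rose to 11 without sham replicate 3. Against the mean of the members' standardised values over the 9 libraries, r was -0.88 for Cirbp and -0.78 for Rbm3. Clock genes ran from -0.85 for Cry2 to 0.61 for Npas2, both named after their values were seen. Values of similar size were found in other lists, picked after they were seen. They were -0.76 for Hspa14, -0.70 for Aldh1l1, 0.74 for Foxj1 and 0.78 for Fos, so such an r was not particular to Cirbp and Rbm3. The share of all genes with such correlations is not given here. The temperature of the animals or of the tissue is not in the labels, and its part was not tested.

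**Figure D4:**
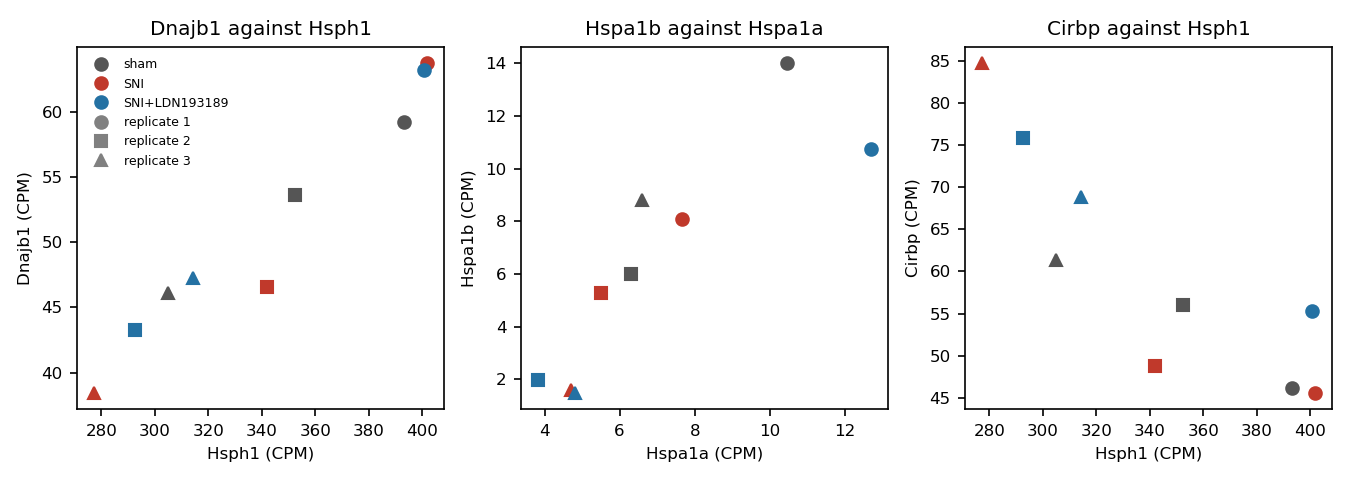
CPM of Dnajb1 against Hsph1, of Hspa1b against Hspa1a, and of Cirbp against Hsph1, 1 point a library (colour is the group, shape the replicate number; linear axes that do not start at 0). Dnajb1 climbs with Hsph1 (r = 0.97) and Hspa1b with Hspa1a (r = 0.87), while Cirbp declines as Hsph1 climbs (r = -0.88), with libraries of each group spread along the trend.

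The 10 genes outside the members whose log2 CPM was most like the mean of the members' standardised values over the 9 libraries had a Pearson r from 0.91 to 0.96. In order they were Ptges3, Sbno1, Snrk, Car11, Gapvd1, 2810004N23Rik, Hsp90ab1, Gm6277, Fkbp4 and Rexo4. Ptges3, the HSP90 cochaperone p23, came first with 0.96 and was at 127 to 147 CPM. Hsp90ab1, the constitutive cytosolic HSP90, reached 0.92 at 1331 to 1599 CPM, and Fkbp4, an immunophilin of HSP90 complexes, 0.91 at 144 to 171 CPM. This ranking of 18237 genes on 9 libraries is a description, and 15 genes had an r over 0.9.

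Beyond the 8, 76 other chaperones, cofactors and regulators were followed in 9 lists, of which 74 passed the filter on low counts. Hspb2 and Hspb3 did not, being listed at 0 counts throughout. None of the 74 passed an adjusted p of 0.05 in any of the 3 comparisons (edgeR). At an unadjusted p of 0.05 there were 4 of the endoplasmic reticulum, 1 cofactor of HSP70 and 1 small heat shock protein in SNI against sham, 0 in SNI with LDN193189 against SNI, and 11 of the endoplasmic reticulum in SNI with LDN193189 against sham. In SNI against sham, 2 of 6 other HSP70 and HSP110 proteins were higher and 4 lower (median log2 fold change -0.02), and the lowest joint p-values were those of Hspa2 and Hspa1l, whose log2 fold changes were -0.09 and 0.14. Of 8 other J-domain proteins 3 were higher and 5 lower (median -0.01), with Dnaja4 at -0.12 and Dnajb4 at -0.10. Dnaja1, the most abundant partner named, was at 307 ± 20.0 CPM in sham, 306 ± 26.5 CPM in SNI and 301 ± 13.8 CPM with LDN193189 (SD, n = 3).

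Among 9 cofactors of HSP70, 4 were higher in SNI and 5 lower (median -0.01). Bag1 had the lowest joint p of them, with a log2 fold change of 0.12 and an adjusted p of 0.927 (edgeR), Bag2 differed by -0.08, and Bag3, the exchange factor of stress-induced autophagy, by 0.01. HSP90 and its cofactors had 4 of 13 higher and 9 lower (median -0.03), with Cacybp at -0.01 and Tomm34 at 0.06. Hsp90ab1 was at 1514, 1583 and 1483 CPM in sham, 1599, 1557 and 1331 CPM in SNI, and 1567, 1375 and 1375 CPM with LDN193189, and like Hsph1, Hspa8 and Dnajb1 it was lowest in SNI replicate 3. Stip1, which hands clients from HSP70 to HSP90, was at 91.9 ± 7.13 CPM in sham, 89.3 ± 10.3 CPM in SNI and 90.6 ± 9.32 CPM with LDN193189. Chordc1, an HSP90 partner that is itself heat-inducible, was at 127, 92.7 and 95.01 CPM in sham, 117.5, 96.5 and 81.4 CPM in SNI, and 101.4, 90.0 and 84.3 CPM with LDN193189.

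Of the heat shock factors and their binding protein, 3 of 4 were higher in SNI than in sham and 1 was lower (median 0.01). Hsf1, the main factor of the heat shock response, was at 24.0 ± 0.664 CPM in sham, 24.4 ± 3.42 CPM in SNI and 23.6 ± 1.12 CPM with LDN193189. Hsf2 was at 32.3 ± 5.68, 31.6 ± 2.53 and 33.9 ± 0.778 CPM in the same order, and Hsf4 differed between SNI and sham by 0.01 on the log2 scale. The level of Hsf1 mRNA does not report the activity of the protein, which is set after translation.

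Of the small heat shock proteins other than Hspb1, 1 of 4 was higher in SNI than in sham and 3 were lower (median -0.41). The 1 that was higher was Hspb8, a partner of Bag3, at 0.15. Cryab, the alpha-B crystallin of oligodendrocytes and astrocytes, was at 302 ± 60.3 CPM in sham, 245 ± 44.7 CPM in SNI and 242 ± 35.7 CPM with LDN193189, with an adjusted p of 0.944 for SNI against sham (edgeR). Its sham libraries were at 259, 276 and 371 CPM, highest in sham replicate 3. Hspb6, named after its values were seen, was at 23.7 CPM in sham replicate 1 and at 8.37 to 11.2 CPM in the other 8 libraries. Hspb7, a small heat shock protein of heart and muscle, was at 9.22 CPM in sham replicate 1 and at 0.0575 to 0.717 CPM in the other 8 libraries. The same library held 222 CPM of the muscle actin Acta1 and a sum of 799 CPM over 11 skeletal muscle markers, against 6.29 to 20.3 CPM in the others. The part of muscle RNA in the Hspb6 and Hspb7 values was not tested.

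Chaperones of other compartments were counted the same way. In the mitochondria 6 of 7 were higher in SNI and 1, Hspe1, was lower (median 0.06), with Hspe1 at 65.0 ± 1.42 CPM in sham and 60.8 ± 4.99 CPM in SNI; Hspa9, the mitochondrial HSP70, and Trap1, the mitochondrial HSP90, were both at a log2 fold change of 0.08. Of the 8 subunits of the chaperonin CCT 5 were higher and 3 lower (median 0.03), with Tcp1 at 0.07 and Cct8 at 0.04. In the endoplasmic reticulum 14 of 15 were lower in SNI than in sham (median -0.20), and 14 of 15 were lower with LDN193189 than in sham (median -0.27); the 2 comparisons share their sham libraries. At an unadjusted p of 0.05 these were 4 and 11 of 15 genes, where all genes gave 5.33% and 8.56%, and none passed the adjusted threshold.

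Manf, a secreted factor of endoplasmic reticulum stress, had the lowest joint p of that list, with 51.4 ± 2.37 CPM in sham, 41.4 ± 3.93 CPM in SNI and 40.6 ± 3.28 CPM with LDN193189 and an adjusted p of 0.793 and 0.282 against sham (edgeR). Dnajc3, a J-domain protein of the same compartment, differed by -0.22 and -0.18 on the log2 scale, with an adjusted p of 0.8998 and 0.495 (edgeR). Hspa5, the HSP70 of the endoplasmic reticulum, was at 42.1 ± 2.21, 34.6 ± 7.62 and 29.1 ± 5.56 CPM in the same order, with an adjusted p of 0.547 for LDN193189 against sham (edgeR). With LDN193189 against SNI the medians of the 9 lists ran from -0.05 for the endoplasmic reticulum to 0.12 for the small heat shock proteins.

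**Figure D5:**
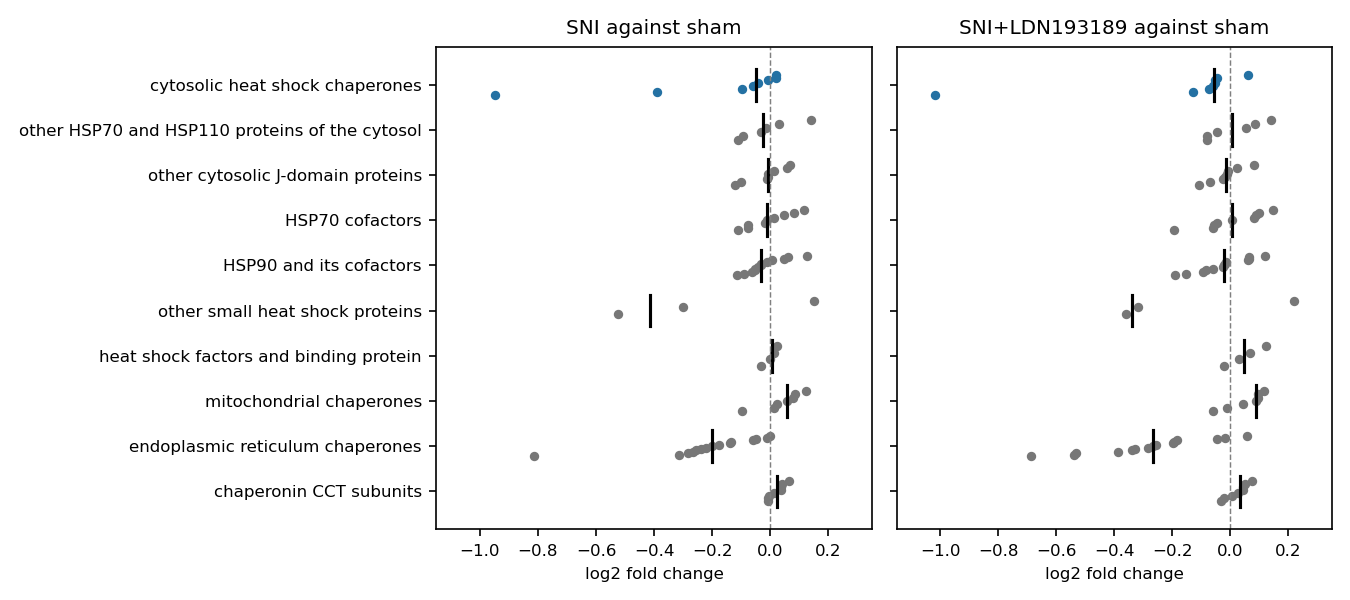
Log2 fold change of each gene (points) of the 8 cytosolic heat shock chaperones (blue) and of 9 other chaperone lists (grey), with the median of each list (black bar), for SNI and for SNI+LDN193189 against sham. The medians of the endoplasmic reticulum list lie at -0.20 and -0.27, and those of the other small heat shock proteins at -0.41 and -0.34. The medians of the remaining lists lie nearer 0. Hspb7 of the small heat shock proteins, at -4.73 and -2.82, lies off the axis and is counted in the median of its list.

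Other features of the libraries differed along with the groups or with single libraries. Meningeal fibroblast markers, among them Col1a1, summed to 159 to 818.5 CPM in sham, 113.5 to 201.5 CPM in SNI and 151 to 241 CPM with LDN193189. Ganglion neuron markers such as Scn10a summed to 47.9 CPM in sham replicate 2 and to 5.86 to 10.7 CPM elsewhere. The tissue's own cells were present in all libraries, with neuron markers at 3045 to 3695 CPM and oligodendrocyte markers at 19306 to 22617 CPM, although the astrocyte gene Aqp4 and the microglia gene P2ry12 were listed at 0 counts throughout. Motor neuron markers summed to 151 to 183 CPM, astrocyte markers to 3368 to 4223 CPM and ependyma markers to 38.9 to 52.3 CPM over the 9 libraries. Microglia markers summed to 109.9 to 125.7 CPM in sham, 130.4 to 142.9 CPM in SNI and 130.6 to 145.3 CPM with LDN193189. All 3 that were tested were higher than in sham in both, 2 and 3 of them at an unadjusted p under 0.05 (edgeR). All genes gave 5.33% and 8.56%, and no microglia marker passed the adjusted threshold. Endothelial markers summed to 179.8 to 216 CPM in sham, 166 to 203 CPM in SNI and 146 to 166 CPM with LDN193189. All 4 were lower with LDN193189 than in sham, at a median log2 fold change of -0.48. Each had an unadjusted p under 0.05 (edgeR), which 8.56% of all genes had. All 4 were also lower with LDN193189 than in SNI (median -0.26). Of these, 3 had an unadjusted p under 0.05 (edgeR), against 3.88% of all genes. In both comparisons 0 of 4 passed the adjusted threshold (edgeR). Clock genes summed to 890.0 to 918 CPM in sham, 916 to 1107 CPM in SNI and 1059.8 to 1143 CPM with LDN193189, and 16 genes of the glucocorticoid response to 778 to 1121.5, 784 to 913 and 1050.2 to 1641.5 CPM. All 16 glucocorticoid genes were higher with LDN193189 than in SNI (median log2 fold change 0.48), 9 at an unadjusted p under 0.05 (edgeR). Of all genes 3.88% had such a p, and 0 of the 16 passed the adjusted threshold. Of the clock genes, 2 passed from sham to SNI with LDN193189. Per2 rose from sham to SNI with LDN193189 by a log2 fold change of 0.76 (adjusted p = 0.0374, edgeR), and Bmal1, named after its values were seen, fell by 0.83 on the log2 scale (adjusted p = 0.0374, edgeR). In the same comparison Per1 differed by 0.66, Dbp by 1.22 and Fkbp5 by 0.39 without passing, at adjusted p-values of 0.437, 0.515 and 0.539 (edgeR). The immediate early genes, Fos among them, summed to 168 to 204, 149 to 185 and 156 to 182 CPM. The part of any of these in the levels of the chaperones was not tested.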

How the data were processed

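Poly(A)-selected, strand-marked libraries of mouse spinal cord were sequenced as 150-base pairs, per the labels' protocols, which also describe the extraction as one from cell lines. The authors deposited raw counts per gene and FPKM, with mm10 as genome build per the submitters' processing notes; the aligner and counter are not given in the sources used here. For 26285 genes the deposited FPKM equalled the count over the total and the gene length, within 1e-09 of the value. Between 70.7% and 71.8% of nonzero counts were even, and 52 of the 72 member counts, so whether a count is a read or a pair is unsettled; if mates were counted singly, the counting error is larger than the counts show.

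Counts were fitted with edgeR 4.0.16 (R 4.3.3): filterByExpr (18245 genes kept), TMM scaling, 9 libraries in 1 model with 3 group means and 6 residual degrees of freedom, robust quasi-likelihood F test, Benjamini-Hochberg adjustment, threshold 0.05, 95% intervals. CPM are counts over the TMM-scaled total; correlations used log2 CPM with a prior count of 2. They were tested exactly over all orders of the 9 libraries, or within groups over 216; Pearson r was also taken for all pairs of tested genes, added after seeing the data, as background. DESeq2 1.42.0 and limma 3.58.1 on log2(FPKM + 0.1) and log2(FPKM + 1), other scalings, no filter, 2 groups at a time, a replicate block and leaving out each library were the alternatives. The fits were tested on simulated counts with 200 log2 changes of 1 planted in each comparison. They recovered 65.5% to 75% of these, and 6.83% to 10.9% of the calls were false. The planted genes were drawn at random, so these shares do not describe the members. Motifs and 150-base windows were searched with Python 3.11.15 in RefSeq promoters (GRCm38.p6) and GENCODE M21 transcripts (GRCm38); 6 of 8 members had a promoter.

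Named are all 8 members, of each other chaperone list the 2 genes with the lowest joint p and 10 set genes, the 10 genes most like the members' mean, and set genes of the marker lists, of which 1 list is not reported here. The members and all lists were chosen with earlier results of these data known.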

Additional observations from a re-analysis of the deposited data

How the results depend on the processing

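No setting called any of the 8 chaperones; the lowest adjusted p over all settings and comparisons was 0.545. Of 408 recomputed log2 fold changes 377 kept their direction and 31 reversed, in 15 of the 24 results, all of them on leaving out a single library; the other scalings, tools, filters and the replicate block reversed none. On leaving out each library in turn, SNI against sham ranged from -0.32 to 0.057 for Dnajb1, -0.039 to 0.086 for Hsp90aa1, -0.61 to -0.12 for Hspa1a, -1.48 to -0.53 for Hspa1b, -0.070 to 0.047 for Hspa4l, -0.039 to 0.10 for Hspa8, -0.10 to 0.0066 for Hspb1 and -0.18 to 0.087 for Hsph1. SNI+LDN193189 against SNI ranged from -0.13 to 0.27 for Dnajb1, -0.46 to 0.56 for Hspa1a, -1.52 to 0.46 for Hspa1b, -0.054 to 0.27 for Hspb1 and -0.17 to 0.12 for Hsph1. SNI+LDN193189 against sham ranged from -0.23 to 0.061 for Dnajb1, -0.85 to 0.17 for Hspa1a, -0.11 to 0.21 for Hspb1 and -0.21 to 0.030 for Hsph1; Hspa1b stayed below 0, from -2.47 without SNI+LDN193189 replicate 1 to -0.60. The cause of the reversals was not tested.

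The count of 15 correlated pairs ranged from 4 to 15 with 1 library left out and was 16 on log2(FPKM + 0.1), 16 with library totals and 13 relative to group means. The count of 7 pairs with Cirbp or Rbm3 ranged from 0 to 11 with 1 library left out, and was 11 on log2(FPKM + 0.1), 11 with library totals and 0 relative to group means. Replicate numbers are shared by the groups in the labels, but samples of the same number deviated from their group means with correlations of -0.109 to 0.144 over genes, so the numbers were not taken to pair them. Those correlations are over all tested genes and cannot settle the matter for the 8 chaperones. In the fit of group and replicate number, 6 of the 8 had an unadjusted p under 0.05 for the number (edgeR), against 5.29% of all genes. With the replicate number as a block, 0 of 8 chaperones were called in each comparison, and the log2 fold change of Hspa1b was -1.11, -0.33 and -1.45 in SNI against sham, SNI+LDN193189 against SNI and SNI+LDN193189 against sham.

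The standard errors ran from 0.0640 for Hspa4l to 0.929 for Hspa1b, so changes of the inducible HSP70 genes were much less detectable at this number of libraries than those of Hspa8, Hsp90aa1 and Hspa4l.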

Other observations

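In the fit of group and replicate number, chosen after seeing the data, 965 of 18245 genes had an unadjusted p under 0.05 for the replicate number and 0 passed the adjusted threshold (edgeR). The lowest p was that of Ahsa2, which is known as an activator of the ATPase of HSP90, with an adjusted p of 0.116 (edgeR). Ahsa2 was at 46.7, 28.4 and 29.3 CPM in sham replicates 1 to 3, 39.6, 28.6 and 28.4 CPM in SNI, and 36.8, 28.1 and 28.9 CPM in SNI with LDN193189, so that 1 library of each group stood above the other 2. Chordc1 ranked 4, Hsph1 ranked 6, Dnajb1 ranked 11 and Hspa1a ranked 17 of all genes by this p. These genes were picked from the ranking after it was seen, and what the libraries numbered 1 had in common was not tested.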
